A study of Homo sapiens with 15 samples.

Results

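The AP-1 family genes considered here are 8 genes, FOS, FOSB, FOSL1, FOSL2, JUN, JUNB, JUND and ATF3, out of 20176 protein-coding genes. A CUT&RUN peak was assigned to one of them when its summit had that gene's start site as the nearest protein-coding one, or lay in the body of the gene. By this rule 12 of the 4873 peaks in the 4 deposited lists belonged to an AP-1 family gene, and they marked 7 separate places in the genome.

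The cells were 786-O, an established line of clear cell renal carcinoma that lacks functional VHL and so keeps HIF2α without hypoxia. All groups carried a lentiviral shRNA under puromycin selection from a PLKO.1 vector, either the control sequence (shControl, genotype WT in the labels) or one against BMAL1 (shBMAL1, BMAL1 knockdown). CUT&RUN, in which an antibody directs a nuclease to cut out the DNA beneath a bound protein, was run with an antibody to BMAL1 or to HIF2α on 100000 cells per reaction. The BMAL1 and HIF2α lists of shControl cells and the HIF2α list of shBMAL1 cells each pool 3 libraries, and the BMAL1 list of shBMAL1 cells pools 2. They held 1812, 1204, 1089 and 768 peaks. The labels and the study's methods call the libraries biological replicates, whereas its reporting summary calls them technical. A further BMAL1 library of shBMAL1 cells was discarded by the authors for low depth. The 4 IgG libraries of the series were not analysed here. A knockdown lowers a protein without removing it, and the level of BMAL1 was not measured in these files. Each group has 1 pooled list without read counts, so the reads behind a peak are not known here, no value has an error between libraries, and nothing below was tested. A locus without a call may still hold signal under the threshold, and a shorter or shallower list holds fewer weak peaks.

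AP-1 is a dimer of basic leucine zipper proteins. JUN, JUNB and JUND pair with each other or with FOS, FOSB, FOSL1 (FRA-1) and FOSL2 (FRA-2), and the dimers bind TGACTCA or its complement TGAGTCA. ATF3 is a related factor that is induced by stress and can pair with JUN proteins. Many of these genes are immediate early genes, transcribed within minutes of a growth factor or stress signal, and JUN acts on its own promoter. BMAL1 binds with CLOCK to the E-box, CACGTG, and HIF2α binds with ARNT to the hypoxia response element (HRE), whose core is ACGTG or GCGTG. An E-box contains the HRE core on both strands.

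Sequences under the peaks at JUN and FOSL2 are shown first, some of them only in part. They were chosen because both genes were assigned HIF2α peaks in both conditions, and the FOSL2 intron also held a BMAL1 peak. The JUN promoter and FOSL2 intron stretches do not cover the whole of the HIF2α peaks. At the FOSL2 promoter the bases between the stretches hold the shControl summit. An HRE core at 28615370 to 28615374 in the shBMAL1 peak is not shown, and that at 28615463 to 28615467 lies outside the shControl peak. The bases are reference sequence (GRCh37, with the coordinates of hg19), written 5′ to 3′ in the direction of the gene. Capitals mark HRE cores, E-boxes and AP-1 sites. In the JUN promoter the capitals also mark TTACCTCA and TGACATCA, AP-1-like elements known from this promoter, which were searched for after the sequence had been seen.
JUN promoter, chr1:59249751-59250050, minus strand: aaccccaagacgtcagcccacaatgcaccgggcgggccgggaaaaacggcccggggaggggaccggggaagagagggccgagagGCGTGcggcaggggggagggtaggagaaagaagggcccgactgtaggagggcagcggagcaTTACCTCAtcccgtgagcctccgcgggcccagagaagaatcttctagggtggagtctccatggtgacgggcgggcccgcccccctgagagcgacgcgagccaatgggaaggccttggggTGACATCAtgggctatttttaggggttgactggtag
JUN, 28.4 kb downstream of the start site, chr1:59221215-59221466, minus strand: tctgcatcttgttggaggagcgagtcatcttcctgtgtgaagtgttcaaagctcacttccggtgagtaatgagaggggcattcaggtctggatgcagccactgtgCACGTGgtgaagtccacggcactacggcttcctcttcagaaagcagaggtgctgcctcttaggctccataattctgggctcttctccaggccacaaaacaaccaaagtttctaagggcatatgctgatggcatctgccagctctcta
JUN, 99.6 kb upstream, chr1:59349213-59349362, minus strand: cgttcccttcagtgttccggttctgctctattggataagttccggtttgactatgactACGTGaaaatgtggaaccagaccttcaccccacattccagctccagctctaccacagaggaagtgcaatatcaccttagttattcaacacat
JUN, 149 kb upstream, chr1:59398626-59398791, minus strand: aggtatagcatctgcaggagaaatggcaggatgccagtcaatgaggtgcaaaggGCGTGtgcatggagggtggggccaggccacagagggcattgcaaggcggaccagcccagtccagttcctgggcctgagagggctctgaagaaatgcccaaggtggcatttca
FOSL2 intron, chr2:28632171-28632470, plus strand: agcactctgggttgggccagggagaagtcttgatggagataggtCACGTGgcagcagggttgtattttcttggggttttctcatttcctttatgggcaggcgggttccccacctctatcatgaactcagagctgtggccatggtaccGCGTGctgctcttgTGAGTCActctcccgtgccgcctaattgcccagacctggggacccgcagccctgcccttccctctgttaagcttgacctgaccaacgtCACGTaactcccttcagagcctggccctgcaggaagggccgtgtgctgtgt
FOSL2, upstream of its first coding-transcript start site, chr2:28615412-28615668, plus strand: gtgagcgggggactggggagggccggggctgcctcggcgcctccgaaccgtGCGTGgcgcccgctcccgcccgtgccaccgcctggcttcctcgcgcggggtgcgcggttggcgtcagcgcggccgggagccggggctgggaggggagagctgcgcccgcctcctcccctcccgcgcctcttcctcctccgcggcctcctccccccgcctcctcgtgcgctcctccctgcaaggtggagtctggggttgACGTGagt
FOSL2 start site, 30 bases from the shBMAL1 summit, chr2:28615709-28615738, plus strand: ttgaactcgtgccattgtagTGACTCAtct

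HIF2α peaks were called at 2 of the 8 genes, JUN and FOSL2, in shControl cells, and at the same 2 genes in shBMAL1 cells. Over all protein-coding genes the same rule gave a HIF2α peak to 5.33% in shControl cells and to 4.70% in shBMAL1 cells. BMAL1 peaks were called at 2 genes, FOSL2 and JUND, in shControl cells and at 0 in shBMAL1 cells, against 8.98% and 3.98% of all protein-coding genes. FOS, FOSB, FOSL1, JUNB and ATF3 had no peak in any of the 4 lists. The counts are set beside these shares as a description.

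**Figure D1:**
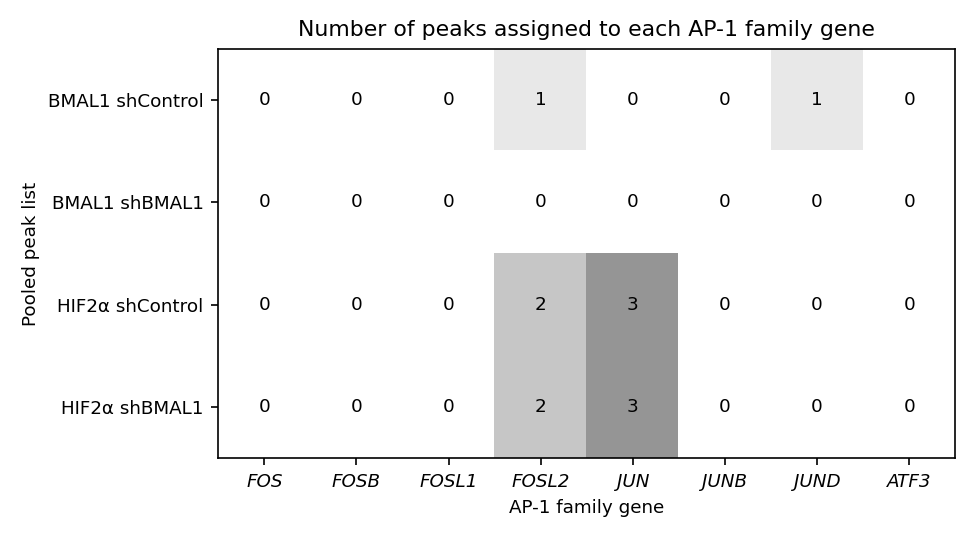
Number of peaks assigned to each of the 8 AP-1 family genes (columns) in each of the 4 pooled lists (rows), with darker cells for more peaks. JUN has 3 HIF2α peaks and FOSL2 has 2 in each condition, single BMAL1 peaks lie at FOSL2 and JUND in shControl cells, and all other cells are 0.

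JUN (ENSG00000177606, chromosome 1, 59242517 to 59249720, minus strand) encodes the JUN subunit itself. It was assigned 3 HIF2α peaks in shControl cells and 3 in shBMAL1 cells, and no BMAL1 peak in either. Genes with at least 2 HIF2α peaks made up 0.852% of protein-coding genes in shControl cells and 0.798% in shBMAL1 cells, and FOSL2 was also among them in both lists. At least 3, as at JUN, were assigned to 49 of 20176 genes in shControl cells and to 50 in shBMAL1 cells. The nearest BMAL1 peak of shControl cells lay 4012 kb from the JUN body, and that of shBMAL1 cells 4831 kb from it.

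At the JUN promoter the shControl HIF2α peak spanned 59249751 to 59250196, from 32 bp to 477 bp upstream of the start site, with its summit 239 bp upstream. Its fold enrichment over the local background was 10.9, its −log10 p was 40.3, and it ranked 160 of 1204 by p. In shBMAL1 cells the peak spanned 59249868 to 59250098, from 149 bp to 379 bp upstream, with its summit 260 bp upstream. There the fold enrichment was 8.12, the −log10 p 25.3 and the rank 313 of 1089. The promoter was thus occupied in both lists, and the summits lay 21 bp apart. Fold and p are values within a list and were not compared between lists. The narrower shBMAL1 peak lay wholly inside the shControl peak. Both summits fell within a lncRNA gene (ENSG00000290013) that overlaps the promoter. The nearest start site of any gene type was that of LINC01135, a divergent lncRNA.

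The JUN promoter sequence holds 1 HRE core, 243 to 247 bp upstream of the start site, which is 6 bp from the shControl summit and 15 bp from the shBMAL1 summit. It holds no TGACTCA or TGAGTCA. TGACATCA lies 60 to 67 bp upstream, and TTACCTCA 179 to 186 bp upstream. Both lie in the shControl peak, whereas the shBMAL1 peak covers only TTACCTCA. Either of these 2 sequences was found in the 300 bp upstream of 2.65% of 19874 protein-coding start sites, an HRE core in 56.3% and an AP-1 site in 3.59%.

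The peak 28.4 kb downstream of the JUN start site was also called in both HIF2α lists. In shControl cells it spanned 59221215 to 59221466, with a fold enrichment of 6.77 and a rank of 493 of 1204, a p shared by 5 peaks. In shBMAL1 cells it spanned 59221247 to 59221457, with a fold enrichment of 9.44 and a rank of 268 of 1089. The promoter peak ranked ahead of this one in shControl cells and behind it in shBMAL1 cells. The summits lay 32 bp apart, within a lncRNA gene (ENSG00000283445). The next nearest protein-coding start site was 55.6 kb from the shControl summit. The sequence holds 1 E-box, the only one in the 200 bp summit windows at these genes, at 22 bp from the shControl summit and 54 bp from the shBMAL1 summit. An E-box was present in 6.81% of all HIF2α windows of shControl cells and in 6.24% of those of shBMAL1 cells. No BMAL1 peak was called there.

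The third JUN peak differed between the lists. In shControl cells it lay 99.6 kb upstream (59349213 to 59349362), within the lncRNA genes LINC02777 and LINC01135. It had a fold enrichment of 4.75 and a rank of 1150 of 1204. This was the weakest HIF2α peak at an AP-1 family gene, close to the end of its list. In shBMAL1 cells the third peak lay 149 kb upstream (59398626 to 59398791), in the body of no annotated gene, with a fold enrichment of 8.29 and a rank of 650 of 1089. Each sequence holds 1 HRE core, at 25 bp and 22 bp from the summit. The next nearest protein-coding start site, that of MYSM1, was 184 kb from the first summit and 233 kb from the second. The assignment of both to JUN rests on distance alone.

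**Figure D2:**
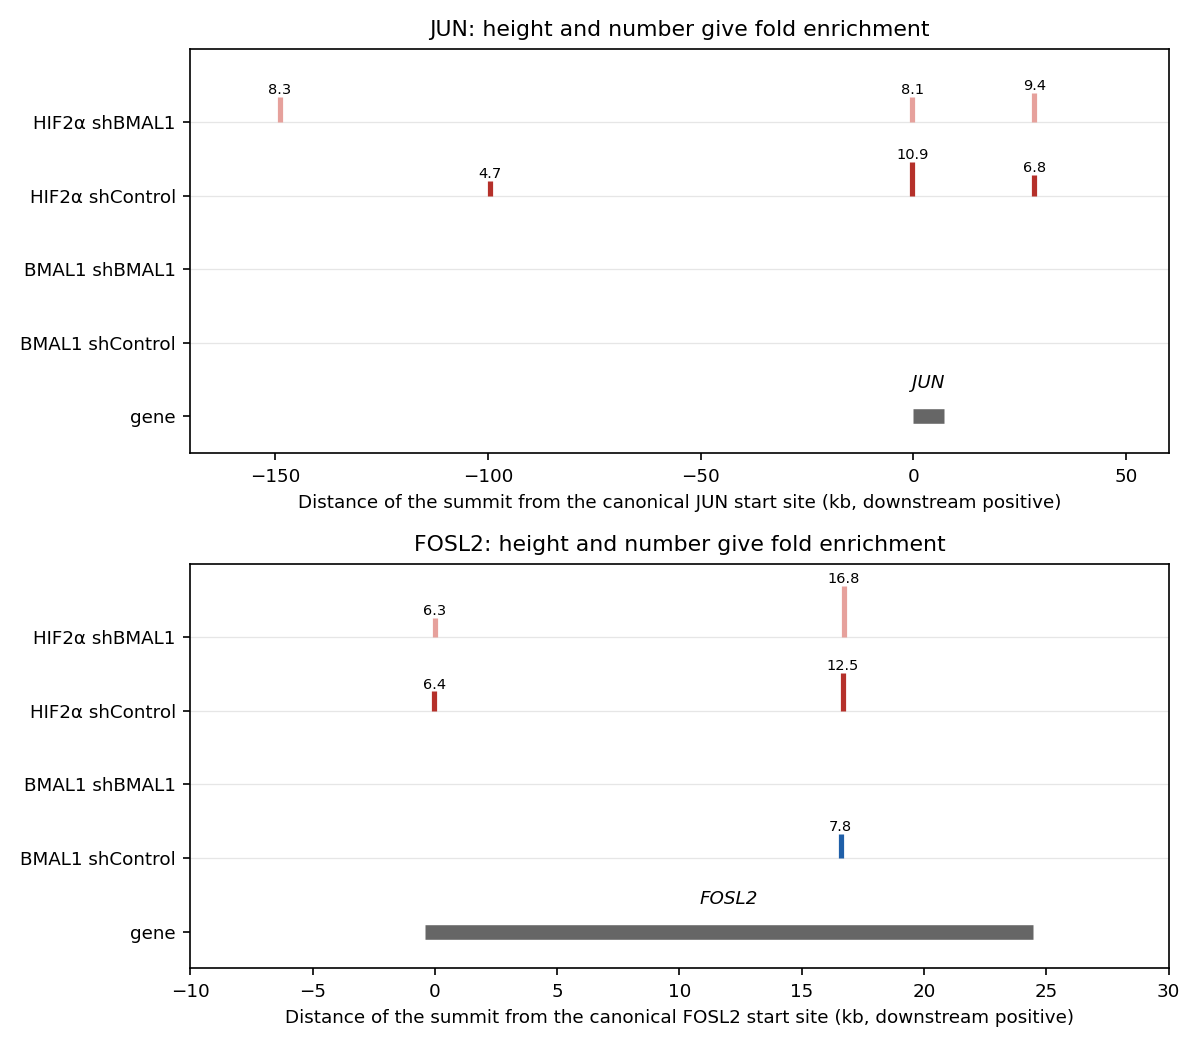
Summits called around JUN (top) and FOSL2 (bottom) by distance from the canonical start site in kb, one row per pooled list, with the height and number of each bar giving fold enrichment and the grey bar giving the gene body. At JUN the promoter and the site 28.4 kb downstream recur in both HIF2α lists while the upstream sites at 99.6 kb and 149 kb do not, and at FOSL2 both HIF2α sites recur and the intronic one carries the BMAL1 peak of shControl cells.

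FOSL2 (ENSG00000075426, chromosome 2, 28615315 to 28640184, plus strand) encodes FRA-2. It was the one AP-1 family gene with peaks of both proteins. In shControl cells the strongest peak of all those at AP-1 family genes lay in its intron 3 of the 4-exon canonical transcript, 16.7 kb from the canonical start site. This HIF2α peak spanned 28632189 to 28632593, with a fold enrichment of 12.5, a −log10 p of 57.0 and a rank of 77 of 1204. In shBMAL1 cells the HIF2α peak spanned 28632262 to 28632602, with a fold enrichment of 16.8, a −log10 p of 63.3 and a rank of 56 of 1089. The intron thus stood in the top of both HIF2α lists, with summits 51 bp apart.

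The BMAL1 peak in the same intron spanned 28632171 to 28632439 in shControl cells, with a fold enrichment of 7.83 and a rank of 897 of 1812. It shared 251 bp with the HIF2α peak, and the summits of the 2 proteins lay 85 bp apart. It was near the middle of its list, whereas the HIF2α peak was near the head of its own. No BMAL1 peak was called there in shBMAL1 cells, where the nearest one lay 4316 kb from the gene body.

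The order of motifs in the intron was an E-box at 28632215 to 28632220, an HRE core at 28632318 to 28632322, an AP-1 site (TGAGTCA) at 28632332 to 28632338 and another HRE core at 28632420 to 28632424. The BMAL1 summit, at 28632319, fell on the middle HRE core and 102 bp from the E-box. An HRE core was present in 58.2% of all BMAL1 windows of shControl cells. The HIF2α summit of shControl cells, at 28632404, lay 18 bp from the last HRE core and 69 bp from the AP-1 site. That of shBMAL1 cells, at 28632455, lay 33 bp from the last HRE core and 120 bp from the AP-1 site. The E-box was covered by the BMAL1 and HIF2α peaks of shControl cells and lay outside the HIF2α peak of shBMAL1 cells.

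At the FOSL2 promoter a HIF2α peak was called in both conditions with summits 3 bp apart. In shControl cells it spanned 28615639 to 28615789, with a fold enrichment of 6.36 and a rank of 511 of 1204. In shBMAL1 cells it spanned 28615346 to 28615790, with a fold enrichment of 6.32 and a rank of 566 of 1089. Both folds were below the median of their lists. The summits lay 19 bp and 16 bp upstream of the canonical start site, in the gene body but outside the canonical transcript. An HRE core lay 43 bp from the shControl summit, and an AP-1 site (TGACTCA) began 4 bp inside the canonical transcript, 26 bp from that summit. FOSL2-AS1, an antisense lncRNA, overlaps this region.

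JUND (ENSG00000130522, chromosome 19, 18390504 to 18392432, minus strand), a subunit that is present in many resting cells, had 1 BMAL1 peak in shControl cells. It spanned 18390452 to 18390595, with a fold enrichment of 4.96 and a rank of 1524 of 1812, a p shared by 4 peaks. The summit lay in the 3′ UTR of the single exon, 1.92 kb from the canonical start site, so the peak was at the end of the gene and not at its promoter. Its 200 bp window held a GC box (GGGCGG) and no HRE core, E-box or AP-1 site. Over all BMAL1 windows of shControl cells a GC box was present in 61.6%, an HRE core in 58.2% and an E-box in 12.9%. The 52 bases of the peak beyond the gene end, shown because they lie outside the transcript, hold none of these motifs.
JUND, downstream of the gene, chr19:18390452-18390503, minus strand: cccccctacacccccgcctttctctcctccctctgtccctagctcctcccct

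The 5 genes without an assigned peak differed in how near a call lay. FOSL1 (chromosome 11, 65659520 to 65668044) had the closest, a BMAL1 peak of shControl cells 1.26 kb beyond its 3′ end that was nearest to CCDC85B, with a fold enrichment of 8.95. Its nearest HIF2α peak of shControl cells lay 11.2 kb upstream, at C11orf68. FOSB (chromosome 19, 45971253 to 45978437) lay 11.5 kb from a HIF2α peak and 11.7 kb from a BMAL1 peak of shControl cells, both at ERCC1. ATF3 (chromosome 1, 212738676 to 212794119) lay 46.8 kb from a HIF2α peak that was called in both conditions, with fold enrichments of 12.7 and 7.84, and whose nearest start site was that of BATF3. JUNB (chromosome 19, 12902300 to 12904129) had its nearest call 15.8 kb upstream, a BMAL1 peak of shBMAL1 cells at HOOK2. FOS (chromosome 14, 75745529 to 75748933) was the most isolated, with no call within 297 kb in any list.

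Within their own lists these peaks spread over much of the range. The 5 HIF2α peaks of shControl cells had folds from 4.75 to 12.5 and a median of 6.77, beside a median of 6.87 over the whole list. The 5 of shBMAL1 cells had folds from 6.32 to 16.8 and a median of 8.29, beside a list median of 7.40. Of these peaks 2 exceeded the list median in shControl cells and 4 in shBMAL1 cells. The 2 BMAL1 peaks lay on either side of their list median of 7.13.

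**Figure D3:**
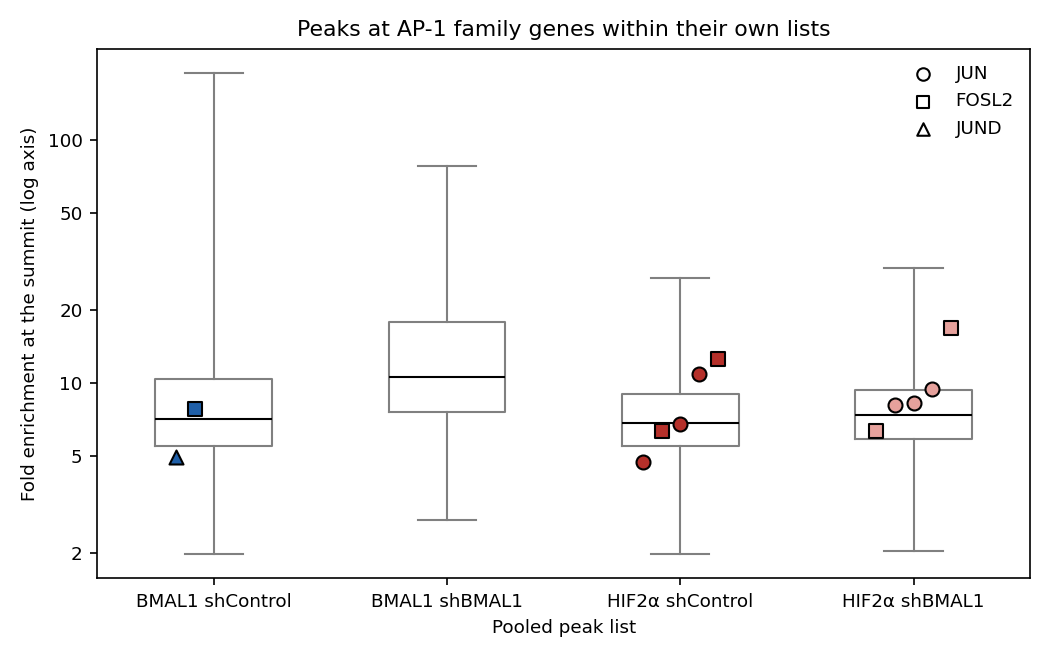
Fold enrichment at the summit (log axis) of each peak at JUN (circles), FOSL2 (squares) and JUND (triangle) within its own pooled list. Boxes give the quartiles and median and whiskers the full range of all peaks of that list, and the intronic FOSL2 peak is the highest of the marked points in all 3 lists that hold any, at 7.83, 12.5 and 16.8.

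Of the 5 HIF2α peaks of shControl cells 4 overlapped a HIF2α peak of shBMAL1 cells by at least 1 bp, where 57.7% of the whole list did. From the other side, 1 of 5 HIF2α peaks of shBMAL1 cells overlapped none of shControl cells, against 36.1% of that list. The exceptions were the 2 distal JUN sites. Of the 2 BMAL1 peaks, 0 overlapped a BMAL1 peak of shBMAL1 cells, where 38.7% of the list did. They ranked 897 and 1524 of 1812. The shBMAL1 list was the shortest and pooled the fewest libraries, so the knockdown, the length of the list and the number of libraries cannot be told apart.

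Overlap of the 2 proteins was limited to the FOSL2 intron. It made up 1 of 5 HIF2α peaks of shControl cells, against 27.9% of the whole list, and 1 of 2 BMAL1 peaks, against 18.5%. In shBMAL1 cells 0 of 5 HIF2α peaks overlapped a BMAL1 peak, against 9.00%. At JUN, HIF2α was called in each condition without BMAL1.

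An HRE core was present in the 200 bp window around each of the 5 summits in shControl cells and each of the 5 in shBMAL1 cells. It was present in 70.8% and 69.5% of all HIF2α windows, so a share of this kind is common in these lists. The nearest core lay 6 to 43 bp from the summit in shControl cells and 15 to 53 bp in shBMAL1 cells, with medians of 21 bp and 33 bp. Over all windows with a core the median was 38 bp in both lists. A core within 25 bp was found at 4 of 5 and 2 of 5 summits, against 24.8% and 25.7% of all windows. The limit of 25 bp was not among the planned measures and was not varied. In shControl cells the core at the JUN site 99.6 kb upstream lay on this limit, at 25 bp. The difference from the whole lists was not tested.

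The AP-1 site, the motif that the products of these genes bind, was present in 2 of 5 HIF2α windows of shControl cells and 1 of 5 of shBMAL1 cells. All of them were at FOSL2. Over the whole lists it was present in 27.5% and 26.5% of HIF2α windows. The FOSL2 BMAL1 window also held it, where 13.0% of BMAL1 windows of shControl cells did. The cyclic AMP response element TGACGTCA and the serum response CArG box were in none of these windows. They were present in 0.498% and 1.33% of HIF2α windows of shControl cells. A match of letters is a description and does not show that a factor was bound.

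**Figure D4:**
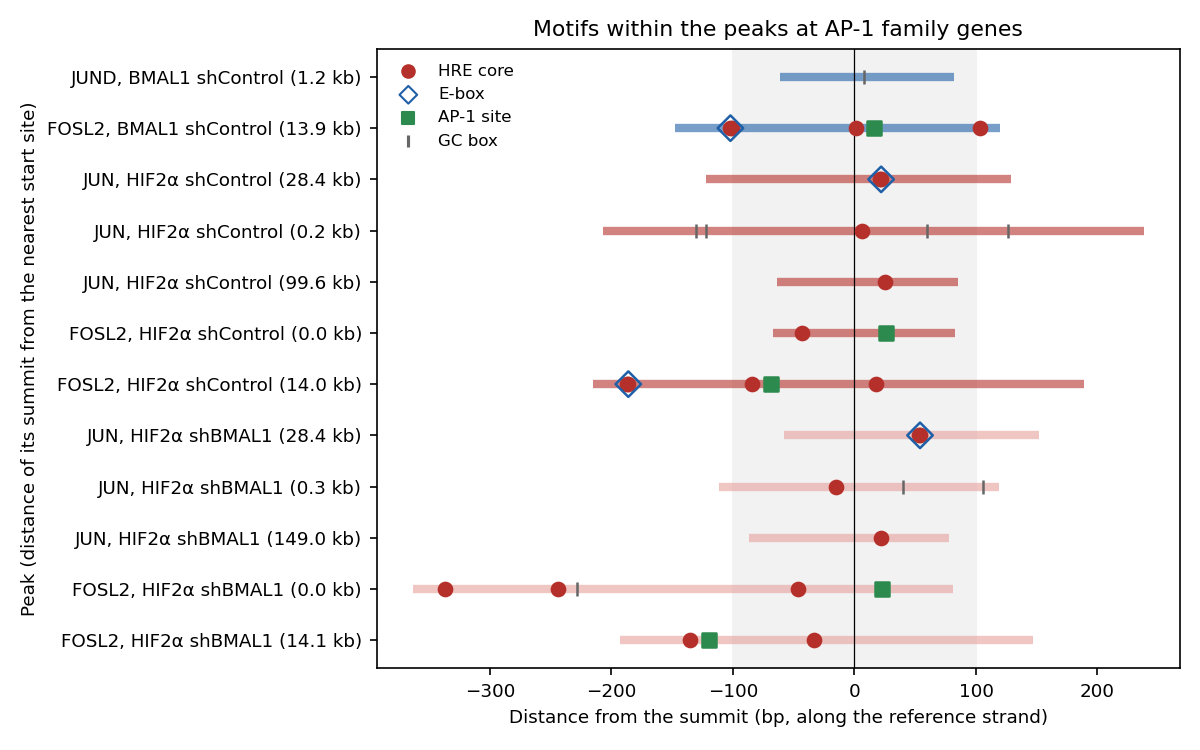
Motif matches along the 12 peaks at AP-1 family genes by distance from the summit in bp along the reference strand, with bars for the extent of each peak, grey for the 200 bp window and labels giving the distance of the summit from the nearest start site (13.9 to 14.1 kb for the FOSL2 intron, where a start site other than the canonical one is nearer). Each of the 10 HIF2α peaks has an HRE core inside the window, AP-1 sites appear only at FOSL2, and E-boxes at the downstream JUN site and the FOSL2 intron.

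Among protein-coding genes, 3 had the same numbers of peaks as JUN in the 4 lists: ARHGAP35, NPAS1 and MAF. ARHGAP35 and NPAS1 were assigned the same peaks, with highest folds of 7.60 in shControl cells and 11.8 in shBMAL1 cells. Next in order were ZNF469 and ANGPTL4, at a Euclidean distance of 1 between these peak numbers. Ties in this distance were ordered by the distance between the highest log2 folds per list. Other genes at a distance of 1 were not listed. MAF is itself a leucine zipper factor. Its 3 HIF2α peaks of shControl cells lay on both sides of its start site, 428 kb and 430 kb downstream and 427 kb upstream.

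The wider pathway was read from 44 genes in 4 groups by the same assignment rule. HIF2α peaks were called at 8 of 44 in shControl cells and 9 of 44 in shBMAL1 cells, against 5.33% and 4.70% of all protein-coding genes. BMAL1 peaks were called at 7 and 1 of 44, against 8.98% and 3.98%. The lists were chosen with earlier results known, and these counts were not tested. Most of the peaks lay more than 1 kb from the start site of their gene. They were 10 of 11 HIF2α peaks in shControl cells, 12 of 13 in shBMAL1 cells and 6 of 8 BMAL1 peaks in shControl cells. Outside a gene body, as at KLF6 (55.6 kb from its start site in both HIF2α lists), the assignment rests on distance alone. Of 12 other leucine zipper partners, HIF2α was called at BATF3 and MAF in both conditions and BMAL1 at MAFK in shControl cells. Of 8 upstream kinases and factors, only SRF, which drives FOS through the serum response element, had a peak, of both proteins and in shControl cells alone. Its HIF2α peak ranked 1191 of 1204. Of 12 other immediate early genes, 4 had a HIF2α peak in each condition (IER3, ZFP36, KLF6 and CCN1) and 3 a BMAL1 peak in shControl cells (IER2, IER3 and CCN1). Among 12 AP-1 target genes, PLAUR, the urokinase receptor, had a BMAL1 peak at its promoter in both BMAL1 lists, with fold enrichments of 37.0 and 67.7. PLAU and CD44 had a HIF2α peak in shBMAL1 cells only, at ranks 1074 and 958 of 1089, and this difference was not tested.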

How the data were processed

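CUT&RUN was performed in 786-O cells with 15 libraries in 6 groups by antibody and shRNA. For alignment to hg19 the authors used Bowtie2 2.5.3, and after removing duplicates with SAMtools 1.6 and sambamba they called peaks with MACS2 2.2.9.1 and took out blacklisted regions with bedtools 2.31.1. Whether IgG served as the control in calling is not given in the sources used here. The authors deposited 1 peak list per group, whose fold is the ratio of signal at the summit to what MACS2 expected locally. The deposited −log10 p is that of MACS2 at the summit. The deposited score, a whole number made from the q-value, was not used. The smallest −log10 p in the 4 lists was 8.64. The study's methods give a like sequencing depth for all libraries kept, but the pooled lists hold no read counts, so no interval could be given.

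Peaks were assigned with GENCODE v44lift37 (20176 protein-coding genes), using start sites of protein-coding transcripts. The summit was the peak start plus the deposited offset, and coordinates are counted from 1. Ranks run from the smallest p, with ties at the best rank. Peaks overlapped when they shared at least 1 bp. Promoter motif shares used the 300 bp before each canonical start site. Motifs were searched on both strands in 200 bp around the summit with pysam 0.24.0, without N. Assignment, overlap and motif searches were tested on simulated data. The 8 genes, the pathway lists and the alternatives were chosen with earlier results of these data known. Genes named are the 8 members, those of the pathway lists with a peak (1 of them is counted but not reported here), and the 5 most like the member with the most peaks. No statistical test was made, since each group has 1 pooled list.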

Additional observations from a re-analysis of the deposited data

How the results depend on the processing

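No paired analysis was possible because the lists are pooled and carry no replicate numbers, and leaving out a library could not be run for the same reason. Of 80 alternative values for 18 counts, 66 stayed within 1.5 times the reported count. The 66 include counts of 0 that stayed at 0, such as peaks of the BMAL1 list of shBMAL1 cells. A stricter threshold, a shorter list or a narrower assignment could not raise these, so the tally overstates stability.

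With genes of every type as candidates for the nearest start site, HIF2α peaks at AP-1 family genes fell to 2 in each condition, all at 1 gene, FOSL2, since start sites of other gene types lay nearer to every JUN summit. Limited to gene bodies and 1 kb around start sites, HIF2α peaks numbered 3 in each condition. With a −log10 p of at least 20, the BMAL1 list of shControl cells held 1 peak at 1 gene, and the HIF2α list of shBMAL1 cells held 3. In lists of equal length (768 peaks) the shControl BMAL1 list held 0 peaks at 0 of these genes, and the co-occupied HIF2α peaks became 0. An AP-1 site was in 1 HIF2α window of shControl cells at 100 bp, and in 2 HIF2α peaks of shBMAL1 cells over the whole peak.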

Other observations

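Beyond the AP-1 family genes themselves, the pathway lists held 11 HIF2α peaks in shControl cells, and 5 of these overlapped a BMAL1 peak, against 27.9% of the whole list, among them those at SRF, IER3 and CCN1. In shBMAL1 cells they held 13 HIF2α peaks, of which 0 overlapped a BMAL1 peak, against 9.00% of that list, and the 1 BMAL1 peak left was that at the PLAUR promoter. Of the 11 HIF2α peaks 9 overlapped a HIF2α peak of shBMAL1 cells, against 57.7% of the whole list. These counts were not tested. The strongest was upstream of IER3, an early response gene that limits cell death, where the HIF2α peak of shControl cells (chromosome 6, 30720101 to 30720577) lay 7.87 kb from the start site, with a fold enrichment of 13.6 and a rank of 81 of 1204. It was called again in shBMAL1 cells at a rank of 172 of 1089.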
